A study of Mus musculus with 4 samples.

Results

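The medial ganglionic eminence (MGE) is a swelling of the ventral embryonic forebrain from which many inhibitory interneurons of the cortex and striatum are born. The 9 genes described here are fate factors of that region and products of the interneurons it makes: Nkx2-1, Lhx6, Lhx8, Maf, Satb1, Sox6, Cxcr4, Sst and Npy. They were picked by symbol from a table of 48795 genes, and each symbol matched 1 row. RNA was measured in mouse telencephalon (C57BL/6) at embryonic day 14, in 2 control libraries from embryos with a floxed Ctcf gene and 2 Ctcf-null libraries from embryos with floxed Ctcf and NestinCre. Floxed Ctcf is common to all 4 libraries, and only the Ctcf-null libraries carry Cre, so an effect of Cre and the loss of Ctcf cannot be told apart. Nestin sequences drive Cre in neural progenitors, so cells of other origin in the tissue, such as microglia and blood, are not its target. The submitters' design text speaks of 2 pairs, numbered 1 and 2, and the labels leave unsaid whether each library is from its own embryo. The main p-values come from comparisons within these pairs and leave out the spread between pairs. They draw in part on the spread of other genes. They speak only for these 4 libraries, and part of the spread may be technical.

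In the MGE, the secreted factor Sonic hedgehog maintains the homeodomain factor NKX2-1 in progenitors, and NKX2-1 switches on the LIM-homeodomain genes Lhx6 and Lhx8. LHX6 then acts in postmitotic interneurons, upstream of Satb1 and Sox6, whereas LHX8 is tied to cholinergic neurons. The maturing cells migrate tangentially, guided by the chemokine CXCL12 through its receptor CXCR4, and some of them make the neuropeptides somatostatin (Sst) and neuropeptide Y (Npy). Several of these genes are also used elsewhere: Satb1 and Sox6 in the dorsal telencephalon, Cxcr4 in migrating cells of other kinds and Maf in macrophages.

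The 2 peptide genes had the lowest fold changes of the 9, and their upstream sequences are shown for that reason. RefSeq promoter windows (GRCm38.p6, 250 bases before to 50 after a transcript start) were found for 8 of the 9 genes, 19 windows in all, and not for Maf. The lines give the 250 bases before the start, 5′ to 3′. Capitals mark the cAMP response element TGACGTCA, the classical binding site of CREB.
Sst, chr16:23890845-23891094, minus strand: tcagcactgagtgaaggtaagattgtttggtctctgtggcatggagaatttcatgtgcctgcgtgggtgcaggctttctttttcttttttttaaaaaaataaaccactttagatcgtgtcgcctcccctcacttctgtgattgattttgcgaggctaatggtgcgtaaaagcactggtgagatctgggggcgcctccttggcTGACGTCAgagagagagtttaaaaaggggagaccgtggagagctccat
Npy, chr6:49822460-49822709, plus strand: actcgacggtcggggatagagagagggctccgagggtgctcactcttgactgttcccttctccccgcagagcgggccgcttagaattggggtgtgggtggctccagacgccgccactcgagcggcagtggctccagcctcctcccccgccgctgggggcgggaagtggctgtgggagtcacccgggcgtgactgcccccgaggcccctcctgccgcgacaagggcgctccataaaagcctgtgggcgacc

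The element in the Sst window begins 48 bases before the start. It was found in 1 of the 19 windows of these genes, and 1.79% of all 32851 promoter windows hold it. The other strings searched, also on both strands, were the homeodomain core TAATTA and CAAGTG, a core bound by NKX2 factors that is also a form of the E-box CANNTG. The homeodomain core was in 0 of the 19 windows (5.29% of all windows), and CAAGTG was in 3 (13.6% of all windows), of Satb1 and Sox6. The Satb1 windows among these 3 overlap and hold the same site. The homeodomain core and the cAMP element read the same on both strands. None of the 3 strings was in the Npy window. A match is a match of letters only.

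The libraries held 25519331 to 43812558 reads, recovered from the deposited values as described under processing. Values below are normalized counts, read numbers scaled for the depth of the library. Ctcf itself stood at 436.72 in control 1 against 38.89 in Ctcf-null 1, and at 1133.21 against 61.96 in pair 2, so its RNA was lower in each library labelled Ctcf-null. Telencephalic markers were present throughout, with a summed level of 33088 to 45615 for 9 cortical excitatory genes. Neurod6 made up most of each sum (25180.94 to 35714.65), and others were uneven, such as Emx1 (96.87 to 2268.93). The 2 pairs stood apart from each other: the 10 most abundant genes took 26.0% and 21.9% of reads in pair 1 but 8.82% and 8.37% in pair 2, and libraries with the same number correlated across genes at r = 0.987 and 0.984, and the others at 0.887 to 0.903. As the design text names pairs, tests compared libraries within them, by limma with the pair as a block, on the log2(normalized count + 1) scale. In what follows, rose and fell mean an adjusted p under 0.05 in that fit over all 22158 genes tested. Fold changes are Ctcf-null minus control. Each SE is the moderated standard error of that fit, with 18.1 prior degrees of freedom from other genes and 1 residual degree. It can therefore be much smaller than the gap between a gene's own 2 pair ratios.

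All 9 genes passed the filter on low values. Of them, 5 fell in Ctcf-null telencephalon (Sst, Npy, Lhx6, Cxcr4 and Sox6) and 0 rose, where 10.1% of all tested genes fell and 3.67% rose. The share of higher calls among all calls was 26.7% in that fit, 41.6% with TMM factors and 57.6% with upper-quartile factors. At an unadjusted p under 0.05, 1 gene was higher (Satb1), in limma and in edgeR alike. The median log2 fold change of the 9 was -0.62, against -0.07 over all tested genes. The 5 genes that fell spanned a wide range, from 9.01-fold for Sst to 1.23-fold for Sox6, and 3 of the 9 (Sst, Npy and Lhx6) fell by at least 1 on the log2 scale, against 1.21% of all tested genes. The other 4 were Nkx2-1, Lhx8, Maf and Satb1. In edgeR on the recovered reads with the pair block, the same count of 5 fell (7.13% of all genes) and 0 rose (4.80%). Without the block, limma called 0 of the 9 and 0.0% of all genes, with 2 of the 9 (Sst and Npy) and 170 of all genes at an unadjusted p under 0.05, and edgeR called 0 genes, with 174 at an unadjusted p under 0.05. In bulk tissue, fewer cells of a type and less RNA per cell cannot be told apart.

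**Figure D1:**
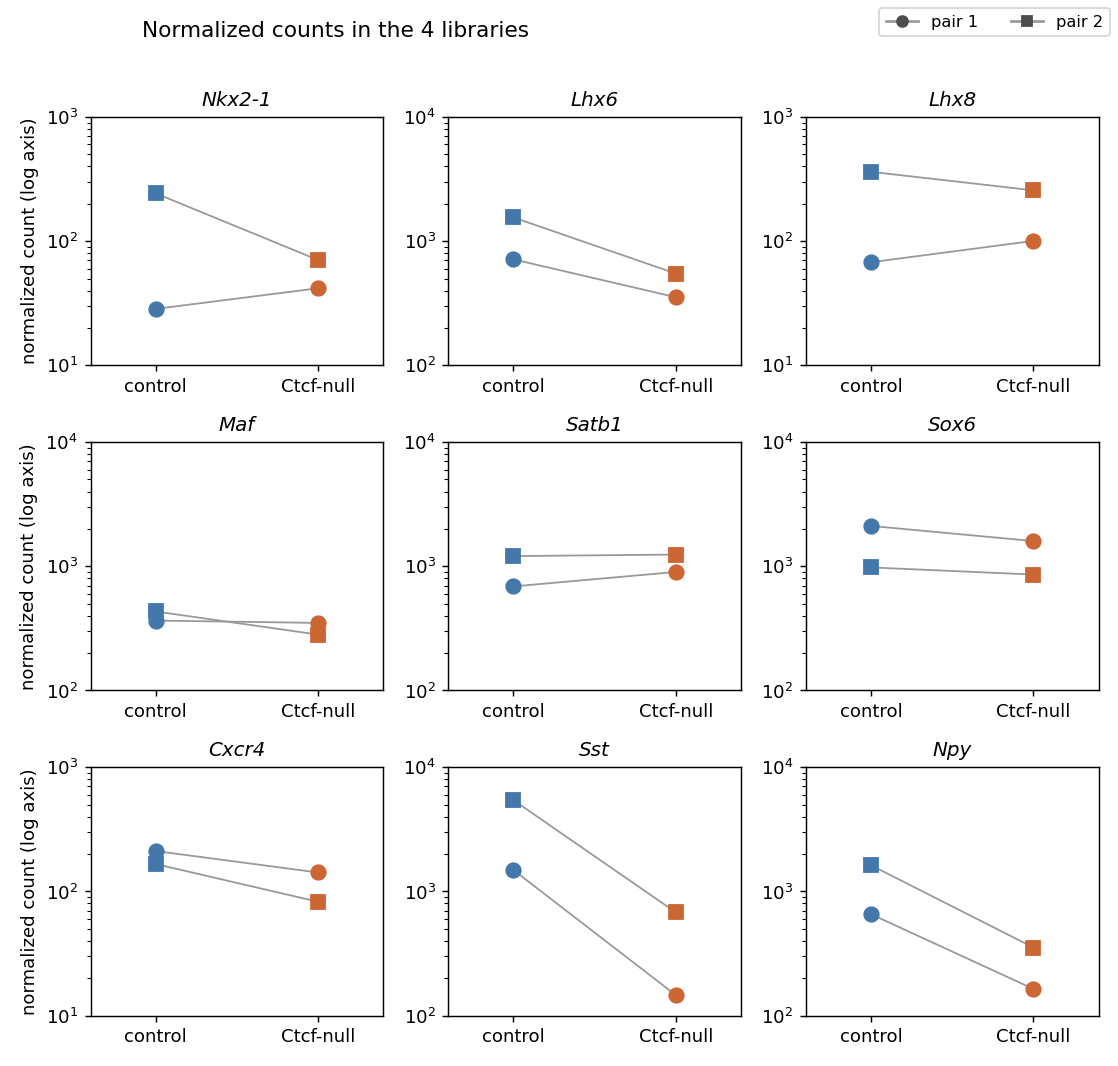
Normalized counts of the 9 genes (log axis, 2 decades in every panel) in control (blue) and Ctcf-null (orange) libraries, with circles for pair 1, squares for pair 2 and a line joining each pair. The lines of Sst and Npy drop steeply in both pairs, whereas those of Nkx2-1 and Lhx8 go opposite ways.

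Of the 3 fate factors at the head of the pathway, Lhx6 fell, and Nkx2-1 and Lhx8 did not pass the test. Nkx2-1 (ENSMUSG00000001496.15, chromosome 12, 56531958 to 56536908, minus strand) was at 28.46 in control 1 against 41.72 in Ctcf-null 1, and at 242.65 in control 2 against 70.46 in Ctcf-null 2. The groups overlapped, because control 1 was the lowest library and control 2 the highest. The log2 fold change was -0.62 (SE 0.34, limma adjusted p = 0.25), with 0.54 in pair 1 and -1.77 in pair 2. This gene was the thinnest of the 9, with 32 reads in control 1. The counting interval of pair 1 held equality (Ctcf-null at 147% of control, 95% interval 93.8 to 233%), while pair 2 stood at 29.0% (21.3 to 39.1%). Intervals here are exact binomial intervals on read numbers that cover counting error only, since the labels name no molecular identifiers. In limma-voom with the block, Nkx2-1 did pass (log2 fold change -0.95, adjusted p = 0.037). The labels name no strand, so its reads cannot be told from those of the antisense transcript Gm26973, which had 6 to 22 reads per library.

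Lhx6 (ENSMUSG00000026890.19, chromosome 2, 36081953 to 36105408, minus strand) was at 713.33 against 353.55 in pair 1 and at 1553.48 against 547.91 in pair 2, control first. Both Ctcf-null libraries lay below both controls. The fall was 2.39-fold (log2 fold change -1.26, SE 0.11, limma adjusted p = 8.7e-08), and the Ctcf-null library was at 49.6% of its control in pair 1 and at 35.3% in pair 2. Lhx8 (ENSMUSG00000096225.7, chromosome 3, 154306294 to 154330659, minus strand), the other LIM-homeodomain gene, was at 67.6 against 100.41 in pair 1 and at 361.48 against 256.34 in pair 2. Each Ctcf-null value lay between the 2 controls. Its log2 fold change was 0.03 (SE 0.19, limma adjusted p = 0.94), with 0.56 in pair 1 and -0.49 in pair 2. The counting intervals of the 2 pairs lay on opposite sides of equality, at 112 to 199% of control in pair 1 and 59.1 to 85.0% in pair 2.

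Maf (ENSMUSG00000055435.6, chromosome 8, 115682942 to 115707794, minus strand), a bZIP transcription factor gene of maturing interneurons, was at 365.56 against 350.02 in pair 1 and at 432.77 against 281.85 in pair 2. The groups did not overlap, but the first pair was nearly level, at 95.7% of control. The log2 fold change of -0.34 (SE 0.13) missed the threshold (limma adjusted p = 0.089). Non-overlapping, lower Ctcf-null values were found for 5 of the 9 genes (Sst, Npy, Lhx6, Maf and Cxcr4), against 7.64% of all tested genes, and non-overlapping, higher values for 0 of the 9, against 6.45%.

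The chromatin organizer gene Satb1 (ENSMUSG00000023927.15, chromosome 17, 51736187 to 51833290, minus strand) was the only one of the 9 with higher values in both pairs. It was at 688.43 against 900.15 in pair 1 and at 1208.26 against 1242.83 in pair 2, and the groups overlapped. Its log2 fold change was 0.21 (SE 0.09, limma adjusted p = 0.14), and with upper-quartile scaling it passed, at 0.32 (adjusted p = 0.026). Satb1 overlaps 5 annotated transcripts on its own strand, of which C230085N15Rik was the most abundant (72.55 to 299.81 normalized counts), and how shared reads were assigned is not known here.

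Sox6 (ENSMUSG00000051910.13, chromosome 7, 115470872 to 116038796, minus strand), an SRY-related factor gene, was at 2112.42 against 1596.65 in pair 1 and at 979.37 against 857.71 in pair 2. The groups overlapped, since pair 1 lay above pair 2 in both genotypes. Each Ctcf-null library was below its own control, at 75.6% and 87.6%. The fall was small (log2 fold change -0.30, or -0.23 relative to the median of all genes, SE 0.08, limma adjusted p = 0.021). The call was lost with TMM factors (-0.24, adjusted p = 0.071), upper-quartile factors (-0.19, adjusted p = 0.19) and DESeq2 (-0.28, adjusted p = 0.33).

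For migration, Cxcr4 (ENSMUSG00000045382.6, chromosome 1, 128588199 to 128592293, minus strand) was at 211.69 against 142.13 in pair 1 and at 166.35 against 82.61 in pair 2. Both Ctcf-null libraries lay below both controls. The fall was 1.72-fold (log2 fold change -0.79, SE 0.16, limma adjusted p = 0.0026), but DESeq2 with the block did not call it (-0.75, adjusted p = 0.14). Ackr3, which encodes the scavenging receptor for the same ligand, fell as well, with 1244.33 against 618.01 in pair 1 and 1781.12 against 710.71 in pair 2. Its log2 fold change was -1.17 (SE 0.09, limma adjusted p = 2.3e-08). The ligand gene Cxcl12 was at 613.71 against 601.75 in pair 1 and at 3283.31 against 3196.36 in pair 2, a log2 fold change of -0.03 (SE 0.08, limma adjusted p = 0.84). It differed far more between the pairs, by 2.41 on the log2 scale, than between genotypes.

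Sst (ENSMUSG00000004366.3, chromosome 16, 23889573 to 23890958, minus strand), whose peptide marks a main class of MGE-derived interneurons, was at 1491.59 against 146.37 in pair 1 and at 5444.67 against 679.12 in pair 2. Both controls were above both Ctcf-null libraries, although the controls themselves differed 3.65-fold. Ctcf-null libraries were at 9.81% of control in pair 1 (95% interval 8.45 to 11.3%) and at 12.5% in pair 2 (11.4 to 13.6%). The log2 fold change was -3.17 (SE 0.09, limma adjusted p = 1.8e-14), the fifth lowest of the 22158 genes. Npy (ENSMUSG00000029819.6, chromosome 6, 49822710 to 49829507, plus strand) was at 656.41 against 164.05 in pair 1 and at 1626.02 against 353.53 in pair 2, again without overlap between groups. It was at 24.99% of control in pair 1 (21.5 to 29.0%) and at 21.7% in pair 2 (19.1 to 24.7%), a log2 fold change of -2.10 (SE 0.10, limma adjusted p = 2.1e-11), rank 39 from the lowest.

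**Figure D2:**
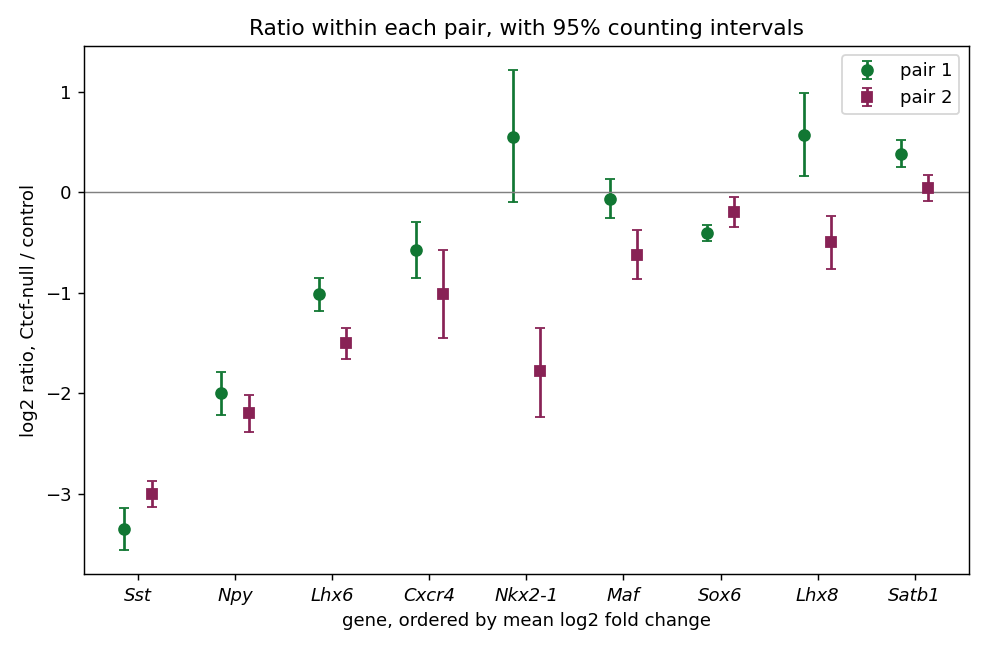
Log2 ratio of Ctcf-null to control normalized counts within pair 1 (green circles) and pair 2 (purple squares), with exact 95% counting intervals. The points of Sst, Npy, Lhx6, Cxcr4, Sox6 and Maf lie below 0 in both pairs, and the intervals meet between pairs only for Npy, Sox6 and Cxcr4.

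The ratios of 3 genes (Npy, Sox6 and Cxcr4) agreed between pairs within counting error, and those of 6 did not. The same share over all tested genes was not computed, so whether this is particular to these genes is not known. Direction was the same in both pairs for 7 of the 9, 6 of them lower (42.9% of all tested genes were lower in both pairs) and 1 higher (5433 of the 22158 tested genes were higher in both). The pairs also differed in level. Control 2 exceeded control 1 for 7 of the 9 genes, by 8.53-fold for Nkx2-1, 5.35-fold for Lhx8 and 2.18-fold for Lhx6, whereas Sox6 was 2.16-fold higher in control 1. Over both genotypes, the median of pair 2 minus pair 1 was 0.88 on the log2 scale for the 9, against 0.08 for all tested genes. The 8 genes shared by GABAergic cells (among them Gad1, Gad2 and 4 Dlx genes) moved with the pairs in the same direction, with a summed level of 4434 against 3893 in pair 1 and 15784 against 10624 in pair 2, control first. The part of this difference between pairs in the results on Nkx2-1 and Lhx8 was not tested.

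**Figure D3:**
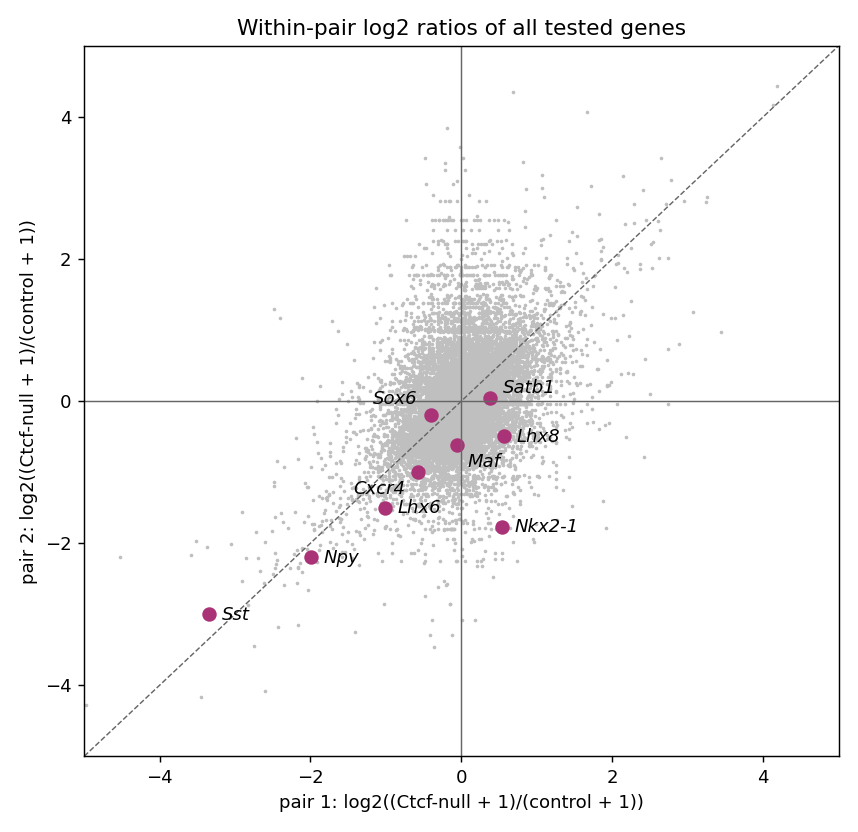
Within-pair log2 ratios of the 22158 tested genes (grey) and the 9 MGE interneuron genes (purple), pair 1 on the horizontal and pair 2 on the vertical axis, with the line of equality dashed and 5 genes beyond the axes. Sst and Npy lie at the lower left near the dashed line, and Nkx2-1 lies in the lower right quadrant.

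Levels can be compared between genes only per length, here as normalized counts per kilobase of exon in GENCODE M21 (GRCm38). The length is the union of all annotated exons, 721 bases for Sst, 14832 for Sox6 and 19027 for Satb1. It can exceed the length of the transcripts present, so the order below depends on the annotation. In controls 1 and 2, Sst was at 2069 and 7552 per kilobase, Npy at 1160 and 2873 and Lhx6 at 148 and 323. That order held in both controls, although the ranges of Sst and Npy overlapped. By mean of the controls, Cxcr4 (105 per kilobase), Sox6 (104), Lhx8 (84.7), Satb1 (49.8), Maf (48.4) and Nkx2-1 (47.7) followed, and the ranges of neighbours in that order overlapped. The 2 controls stood at 26.7 and 143 for Lhx8, at 10.01 and 85.4 for Nkx2-1 and at 142 and 66.0 for Sox6. In Ctcf-null libraries the 2 peptides changed places in pair 1 only, with Sst at 203 and 942 and Npy at 290 and 625.

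Of the 8 genes that GABAergic neurons share, 3 fell (Gad2, Dlx1 and Dlx2) and 0 rose, 3 and 0 in edgeR, with a median log2 fold change of -0.36. At an unadjusted p under 0.05 in limma, 5 were lower and 0 higher. Beside this and the list counts that follow stand the shares of all tested genes, 10.1% lower and 3.67% higher in limma (7.13% and 4.80% in edgeR). Gad2, whose enzyme makes GABA, was at 1262.12 against 878.23 in pair 1 and 2032.53 against 1112.84 in pair 2 and fell by 0.70 on the log2 scale (SE 0.09). Gad1, the gene of the other such enzyme, was at 852.97 against 964.49 and at 1432.15 against 1350.95, a log2 fold change of 0.05 (limma adjusted p = 0.79). Dlx2, a homeobox gene of ventral progenitors, fell by 1.10 on the log2 scale (SE 0.19), with -0.41 in pair 1 and -1.80 in pair 2. Its 2 ratios lay further apart than that moderated SE conveys. The median of the list was -0.22 in pair 1 and -0.69 in pair 2. Relative to that median, Sst stood at -3.12 and -2.31 in pairs 1 and 2, Npy at -1.77 and -1.50 and Lhx6 at -0.79 and -0.81. Cxcr4 stood at -0.35 and -0.31, whereas Satb1, at 0.61 and 0.73, and Lhx8, at 0.79 and 0.20, were above it in both pairs. Maf lay close to it, at 0.16 and 0.08. Nkx2-1 (0.76 and -1.08) and Sox6 (-0.18 and 0.50) were on opposite sides of it in the 2 pairs. These differences are given without a test.

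The other MGE factors, a list of 18 that leaves out the 9 genes, had 17 tested members, of which 5 fell and 1 rose (5 and 1 in edgeR), with a median of -0.40. Among those that fell, the homeobox gene Gbx1 fell by 1.16 (SE 0.33), the ETS factor gene Etv1 by 0.36 (SE 0.10) and Lmo3, a LIM-only cofactor gene, by 0.21 (SE 0.07), the last not called in edgeR (adjusted p = 0.17). Zeb2, which in postmitotic MGE cells turns Nkx2-1 off, rose by 0.24 (SE 0.07), with 1899.85 against 2250.72 in pair 1 and 2038.78 against 2409.12 in pair 2. Shh, the ligand gene, was too low to test, at 2.67 against 3.54 and 11.26 against 6.07.

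Around the peptides, of 24 listed genes for receptors, processing enzymes, other transmitters and chemokine partners, 20 could be tested. Of these, 7 fell and 1 rose (8 and 1 in edgeR), with a median of -0.30. The somatostatin receptor gene Sstr2 was at 1430.22 against 437.7 in pair 1 and 3714.83 against 1372.82 in pair 2. It fell by 1.57 on the log2 scale (SE 0.08, limma adjusted p = 8.0e-11). The neuropeptide Y receptor gene Npy2r fell by 2.34 (SE 0.31), with 69.38 against 16.26 and 58.79 against 8.5. The carboxypeptidase gene Cpe, which trims peptide precursors, fell by 0.79 (SE 0.09) and the tachykinin gene Tac1 by 1.57 (SE 0.11). Pcsk2, which encodes a convertase of peptide precursors, rose by 0.54 (SE 0.12). Pcsk2 therefore moved opposite to Cpe, which acts after it on the same precursors. The other listed convertase gene, Pcsk1, was lower in both pairs but did not pass (-0.61, limma adjusted p = 0.13). Pam, also on the list, was nearly level (-0.07). Pcsk1 and Pam were named after their values were seen.

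**Figure D4:**
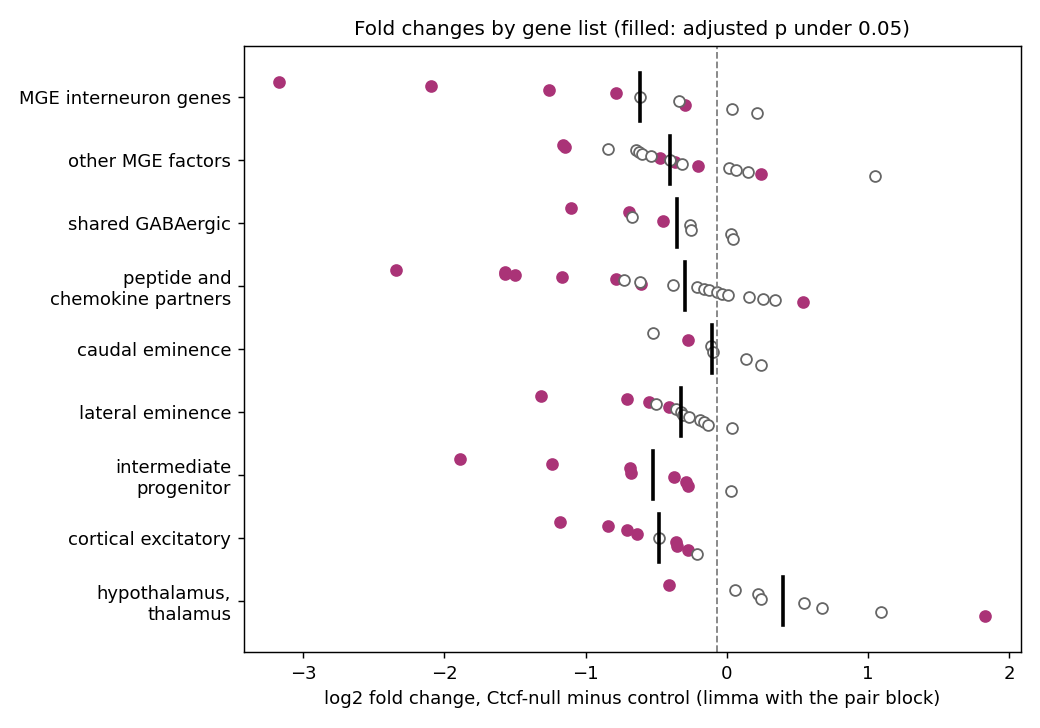
Log2 fold changes (limma with the pair block) of tested genes in each list, 1 point per gene, filled where the adjusted p was under 0.05, with a black bar at the list's median and the dashed line at the median of all tested genes (-0.07). Sst at -3.17 is the leftmost point, and the hypothalamus and thalamus list has the highest median of the lists plotted (0.39).

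Some genes of neighbouring territories fell as well. In the lateral eminence and striatum list 4 of 13 fell and 0 rose, with a median of -0.33, led by Isl1 at -0.71, Ebf1 at -0.55 and the dopamine receptor gene Drd1 at -1.32. In the caudal eminence list 1 of 6 tested fell (Nr2f1, -0.28), 0 in edgeR, and 0 rose, where 10.1% of all tested genes fell in limma. On the dorsal side 7 of 8 intermediate progenitor genes fell (6 in edgeR), with Btg2 at -0.69, Neurod4 at -1.24 and Neurog2 at -0.68, and 7 of 9 cortical excitatory genes fell, with Bcl11b at -1.18, Slc17a6 at -0.84 and Fezf2 at -0.71. In each of these 4 lists 0 genes were higher at an unadjusted p under 0.05 in limma, and 0 rose in edgeR. Whether the MGE interneuron genes differ from these lists was not tested.

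NKX2-1, SST and NPY are also made in the neighbouring hypothalamus, so markers of that region and of other cells were read beside them. The hypothalamus and thalamus list of 17 genes summed to 1482 against 1517 in pair 1 and 1854 against 2057 in pair 2. Tcf7l2 and Lhx9 made up most of each sum (961.49 and 413.59 in control 1), so the sums say little of the list's other genes. Of the listed genes 8 could be tested, with a median of 0.39. Lhx9 fell (-0.41) and Agrp rose (1.83). In edgeR 1 fell and 2 rose, and at an unadjusted p under 0.05 in limma 1 was lower and 4 were higher. The 9 genes too low to test reached at most 12.73 in any library (Hmx2), and 0 of the 17 were at 0 in all. Of the tested genes, Pomc, Fezf1 and Lhx9 were higher in pair 2 than in pair 1 in both genotypes, as Nkx2-1 was. Sim1, Nr5a1, Agrp and Tcf7l2 were lower in pair 2 in both genotypes, and Otp was mixed. The median of pair 2 minus pair 1 over the tested genes of the list was -0.12 on the log2 scale. Pomc, a hypothalamic neuropeptide precursor gene, was at 20.46 against 25.46 in pair 1 and 222.64 against 245.41 in pair 2. Fezf1, a transcription factor gene, was at 16.9 against 33.94 and 253.91 against 278.21. Hmx2, Pomc, Fezf1, Sim1, Nr5a1, Tcf7l2 and Otp were named after their values were seen, and none of those tested passed in limma. Microglia markers, relevant to Maf, summed to 1710 against 2107 and 3714 against 4442. C1qb rose by 0.47, and of the 10 genes 0 fell in limma or edgeR and 0 were lower at an unadjusted p under 0.05. Endothelial and pericyte markers, relevant to Cxcr4, summed to 3913 against 3239 and 6574 against 5796, with Esam (-0.35) and Pecam1 (-0.31) falling among 9, Pecam1 not in edgeR. Cajal-Retzius markers, whose cells also carry Cxcr4, summed to 2382 against 2639 and 2044 against 1870, with Reln rising by 0.26 and Nhlh2 falling by 0.43. Of 3 oligodendrocyte precursor markers Pdgfra rose by 0.53 and made up most of the sums of 490.1 against 611 and 295 against 392. Cspg4 was lower in both pairs, at 44.47 against 40.31 and 65.04 against 29.16 (log2 fold change -0.63, limma adjusted p = 0.14). Sox10 went opposite ways in the pairs. In the choroid plexus list 2 of 6 rose (Ttr by 0.47, Otx2 by 0.48), in sums of 73411 against 96101 and 25166 against 36275. Of 7 red blood cell genes 0 passed in limma or edgeR (4 were lower at an unadjusted p under 0.05), in sums of 1341558 against 923257 and 573470 against 623630. Mitochondrially encoded genes took 2.43% against 3.34% and 2.65% against 2.88%. The part of these cell types and of RNA quality in the results was not tested.

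Genes with the most similar changes were found by the distance between 2 within-pair log2 ratios, over 12541 genes with a mean of at least 100 normalized counts. Nearest to Sst were Def8 (distance 0.52), 2810428I15Rik (0.94) and Mdp1 (1.01). Nearest to Npy were Dhrs4 (0.12), Scrn2 (0.16) and Pcdhb7 (0.21), and the 3 nearest to Lhx6 included Rpp25 (0.09) and Gm13889 (0.17). Each gene named here fell, and since they were picked for this likeness, that is a description. The within-pair ratios of Rpp25 were -1.06 and -1.43 where those of Lhx6 were -1.01 and -1.50.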

How the data were processed

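The authors deposited 1 table of normalized read counts per gene, a signal not divided by gene length, per the file headers. STAR 2.5.3, DESeq2 and mm10 are named, per the submitters' processing notes. The gene counter was not given in the sources used here. The authors' deposited log2 ratios per pair were recomputed from values + 1, with a largest gap of 0.00803.

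Each library's values were whole multiples of 1 step, so whole reads were recovered for at least 99.97% of nonzero values (tolerance 0.005). Totals were 41294659 (control 1), 27619441 (control 2), 43812558 (Ctcf-null 1) and 25519331 reads (Ctcf-null 2). The main test was limma 3.58.1 with a mean-variance trend on log2(value + 1), two-sided, with Benjamini-Hochberg adjustment over the 22158 genes kept by filterByExpr. The pair is a block because the submitters' design text names 2 pairs. Deviations of same-numbered libraries from group means correlated at 0.923. The fit has 1 residual degree of freedom and 18.1 prior degrees. Fold changes on this scale understate those of low genes. The edgeR 4.0.16 quasi-likelihood test, which called 2643 genes, DESeq2 1.42.0 and limma-voom on recovered reads, other scalings, pseudocounts and filters, and leaving out libraries were alternatives. The fits were tested on simulated data. GENCODE M21 matched 48349 identifiers. All 9 genes were named, with up to 6 called genes of each context list, up to 3 of each marker list, 6 fixed genes and the 3 nearest genes of Sst, Npy and Lhx6. Members and lists were chosen with earlier results of these data known. Some genes that this rule names are not reported here.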

Additional observations from a re-analysis of the deposited data

How the results depend on the processing

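Sst, Npy and Lhx6 kept their direction and their call in all 10 fits with the pair block, over log2 ranges of -3.17 to -3.06, -2.10 to -1.99 and -1.26 to -1.15. Cxcr4 kept its call in 9 and Sox6 in 7. With no replicate block, limma and edgeR each called 0 genes and 0 of the 9. With the block, limma called 3041 genes and edgeR 2643, and each called 5 of the 9. Leaving out 1 library without the block called 0 to 2 genes (0 higher, 0 to 2 lower) and 0 of the 9. There the log2 fold change ranged from -4.27 to -2.07 for Sst, -2.75 to -1.44 for Npy, -1.82 to -0.70 for Lhx6, -1.17 to -0.40 for Cxcr4 and -0.50 to -0.18 for Maf. It changed sign for Nkx2-1 (-2.14 to 0.91), Lhx8 (-1.17 to 1.24), Satb1 (-0.19 to 0.62) and Sox6 (-0.85 to 0.26), the last turning positive without control 1 (0.26) and without Ctcf-null 2 (0.15). Leaving out 1 library makes 1 pair incomplete, so the difference between pairs enters these fold changes. Sox6, for one, was lower in pair 2 than in pair 1 in both genotypes. Such ranges therefore do not measure how stable the change within pairs is. DESeq2 with the block called 832 genes, 289 higher and 543 lower, and 3 of the 9 (Sst, Npy and Lhx6). limma with the block called 813 higher and 2228 lower (26.7% higher). TMM factors in limma gave 1349 lower (41.6% higher), and upper-quartile factors 1279 higher and 942 lower (57.6% higher), with 1 of the 9 higher (Satb1). The median of all genes moved from -0.07 to 0.04 with upper-quartile factors. Without the 4 Dlx genes in the GABAergic list, the mean distance from its median moved from -0.80 to -0.91 for Lhx6, 0.12 to 0.0066 for Maf, 0.67 to 0.56 for Satb1 and -0.33 to -0.44 for Cxcr4. Apart from that mixing of pairs, the cause of these shifts was not tested. Leaving out a whole pair gives the value of the other pair, printed above, with no test. Depth limits Nkx2-1 most, with 32 reads in control 1.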

Other observations

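Genes around the 9 were read in addition, a choice made after seeing the data. Within 500 kilobases of their start sites, 61 tested genes were found, of which 3 fell and 2 rose, 5 in all where 13.7% of all tested genes were called. Near Sst, Masp1, a complement protease gene, fell by 0.42 on the log2 scale, with 1667.7 normalized counts against 1182.28 in pair 1 and 924.33 against 726.5 in pair 2 (control first), while Bcl6 (-0.64, limma adjusted p = 0.075), Rtp2 (0.09) and Rtp4 (0.24) did not pass. Near Lhx6, the transcript Gm13429, whose start lies 96.9 kilobases away, fell by 2.26, with 12.45 against 2.12 and 30.02 against 4.86. It was 1 of 10 tested neighbours of Lhx6, and the others did not pass. Near Npy, Fam221a rose by 0.51, near Lhx8 the quinone reductase gene Cryz rose by 0.48, and near Cxcr4 Gm6170 fell by 0.42. No tested neighbour of Nkx2-1, Maf, Satb1 or Sox6 passed in limma, but only 2 were tested for Nkx2-1 and 1 for Maf. Of the 5 for Satb1, 5830444F18Rik, E430014B02Rik, Gm37248 and C230085N15Rik overlap the gene on its own strand. Gm45025 likewise overlaps Sox6, on the other strand. AI606473, which starts 0.162 kilobases from Lhx8, was at 237.48 against 251.02 and 392.75 against 232.04 (limma adjusted p = 0.17). Its log2 ratios were 0.08 in pair 1, which was nearly level, and -0.76 in pair 2, where those of Lhx8 were 0.56 and -0.49.

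Among the genes for transmitters and receptors not described above, Nos1, of a class of somatostatin neurons, fell by 0.61. The receptor gene Sstr1 passed with ratios of -0.15 in pair 1 and -2.86 in pair 2. Both were named after their values were seen. Sox6os, antisense to Sox6, had at most 6 reads per library.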
